A study of Rattus norvegicus with 12 samples.

Results

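Rat atrial myocytes treated with the small molecule EF-1 were compared directly with the same cells treated with the growth factor NRG1. Libraries were chosen by their labelled treatment, which gave 4 EF-1 libraries (numbers 9 to 12) and 4 NRG1 libraries (numbers 5 to 8), 8 of the 12 libraries in the series. No vehicle library entered the test. The 4 vehicle libraries (numbers 1 to 4) served only to place each differing gene, that is, to say which agonist lay away from vehicle. The cells, called iAMs, are a single line derived from neonatal rat atrial cardiomyocytes of wild-type genotype, in which a lentiviral vector expresses a viral large T antigen under doxycycline control. With doxycycline they proliferate, and without it they differentiate. All groups were differentiated for 9 days and then incubated for 16 h with NRG1 at 0.1 µM, EF-1 at 32 µM, or PBS as vehicle. DMSO was present in the medium of each group. The agonist doses differ, so the comparison is between these treatments as given and not between matched concentrations. Polyadenylated RNA was sequenced in bulk, so fewer cells of a kind and less RNA per cell cannot be told apart. A figure legend of the study gives 4 biological replicates for EF-1 in these cells. No label says whether the libraries of a group came from separate cultures, and p-values measure the spread between these samples.

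NRG1 is a peptide of the epidermal growth factor family. It binds the receptor tyrosine kinases ERBB3 and ERBB4, and bound ERBB4 pairs with itself or with ERBB2, after which the kinases phosphorylate each other and start intracellular signalling. In the heart, NRG1 released by endothelial cells acts on cardiomyocytes, where this pathway is known for its part in growth, survival and the development of the ventricular wall. EF-1 is a compound that the study selected for inducing ERBB4 dimers. The deposited files list genes by Ensembl identifier without names, and no identifier could be matched to a name. Receptors, pathway members and atrial myocyte markers could therefore not be looked up, and the labelled cell type was not checked against its markers. Gene groups are described below by their behaviour, and 4 genes are given by identifier.

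Library measures were compared first, and none of the 5 passed an adjusted p of 0.05. Total counts were 14442672, 13763279, 17149059 and 16314633 in EF-1 libraries 9, 10, 11 and 12, and 24397526, 27467198, 27099847 and 21384901 in NRG1 libraries 5, 6, 7 and 8. Every NRG1 library was deeper than every EF-1 library (exact two-sided permutation p = 0.0286 with 4 libraries a side, which is as small as this design allows, and adjusted p = 0.0714 over 5 library measures). With at least 1 count there were 12395, 12380, 12539 and 12584 genes in EF-1 libraries 9 to 12 and 12873, 12879, 13058 and 12848 in NRG1 libraries 5 to 8, again without overlap (exact permutation p = 0.0286, adjusted p = 0.0714). A further measure was the length of the transcripts that took the reads. The slope of log2 reads on log2 transcript length, relative to the mean of all 12 libraries, averaged -0.139 ± 0.194 (SD, n = 4) with EF-1 and 0.0853 ± 0.0942 (SD, n = 4) with NRG1 (exact permutation p = 0.0857, adjusted p = 0.143), which did not pass the threshold. A negative slope means relatively more reads from short transcripts. EF-1 library 12, at 0.12, lay within the range of the NRG1 libraries (-0.04 to 0.17), while the other EF-1 libraries lay between -0.33 and -0.12. EF-1 library 12 also stood apart in expression. Most results that rest on it are given with and without it, and the placement by calls against vehicle only with it.

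At the level of the whole transcriptome the agonists gave widely different expression. Of 10878 genes tested, 1443 were higher and 1397 lower with EF-1 than with NRG1, 13.3% and 12.8% of those tested (quasi-likelihood test in edgeR, 4 libraries a side). These genes passed a Benjamini-Hochberg adjusted p of 0.05 and an absolute log2 fold change of 0.58, and are called higher and lower genes from here on. At any fold change 4091 genes passed the adjusted p, 37.6% of those tested. The median log2 fold change over all tested genes was 0.03. TMM scaling largely sets this value and the balance of directions. With library size only, 1269 genes were higher and 1568 lower, and the median was -0.03, so which direction held more genes depended on the scaling. Among the higher genes the median log2 fold change was 0.90 (interquartile range 0.73 to 1.20), and among the lower genes the median size was 0.94 (0.72 to 1.37). The lower genes reached further out: 149 of them differed by at least 2 on the log2 scale and 55 by at least 3, against 96 and 21 of the higher genes. Tested against the fold threshold itself with glmTreat, which asks that the difference exceed 0.58 rather than 0, 434 genes were higher and 577 lower.

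The EF-1 and NRG1 libraries did not overlap at all for 3732 tested genes, 34.3% of them. Among the called genes this held for 1250 of 1397 lower genes (89.5%) and for 1066 of 1443 higher genes (73.9%). The choice by adjusted p favours such genes. CPM values are counts per library total, put on a common scale, and were also used as log2. Their SD between libraries, as a median over the tested genes on the log2 scale, was 0.16 in NRG1 libraries and 0.27 in EF-1 libraries, and 0.19 in EF-1 libraries other than 12. Over the 2840 called genes it was 0.19 in NRG1 libraries and 0.32 in EF-1 libraries. Depth was not balanced between the groups, and when every library was thinned to 13763279 counts, an alternative added after seeing the data, 1434 genes were higher and 1346 lower.

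The 4 genes named here, 2 in each direction, had the smallest adjusted p and were separated by large differences. The gene listed as ENSRNOG00000019587 had 190, 176, 212 and 172 CPM in NRG1 libraries 5 to 8, 6.14, 5.56, 4.55 and 5.01 CPM in EF-1 libraries 9 to 12, and 4.08, 2.92, 5.52 and 3.64 CPM in vehicle libraries 1 to 4. It was high with NRG1 alone, and the EF-1 and vehicle libraries overlapped. The group means were 188 ± 18.2 CPM (SD, n = 4) with NRG1 and 5.31 ± 0.688 CPM (SD, n = 4) with EF-1. The edgeR fit put the difference at -5.13 on the log2 scale (SE 0.14), with an adjusted p of 6.46e-08. ENSRNOG00000023896 was nearly silent outside the NRG1 group. It had 315, 238, 318 and 222 counts in NRG1 libraries 5 to 8 (10.7 ± 1.76 CPM, SD, n = 4), 5, 5, 3 and 6 counts in EF-1 libraries 9 to 12 (0.316 ± 0.0881 CPM, SD, n = 4), and 2, 10, 0 and 3 counts in vehicle libraries 1 to 4. The 0 in vehicle library 3, of 12216228 counts, allows a level of up to 0.244 CPM (3 counts, counting error only). Its EF-1 minus NRG1 difference in the edgeR fit was -5.06 on the log2 scale (SE 0.24), with an adjusted p of 2.83e-06. At counts this low the fitted value depends on the prior count.

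Of the genes higher with EF-1, ENSRNOG00000018859 had 234, 261, 244 and 218 CPM in EF-1 libraries 9 to 12, 50.2, 54.5, 45.3 and 49.9 CPM in NRG1 libraries 5 to 8, and 231, 203, 250.4 and 199.6 CPM in vehicle libraries 1 to 4. The EF-1 and vehicle libraries overlapped, and all NRG1 libraries lay far below both. Its means were 239 ± 18.1 CPM (SD, n = 4) with EF-1, 49.996 ± 3.77 CPM (SD, n = 4) with NRG1 and 221 ± 24.0 CPM (SD, n = 4) with vehicle, and the edgeR fit put the difference between the agonists at 2.27 on the log2 scale (SE 0.11), with an adjusted p of 2.83e-06. ENSRNOG00000028225 had 73.7, 72.5, 70.0 and 69.9 CPM in EF-1 libraries 9 to 12, 11.7, 12.4, 9.24 and 11.3 CPM in NRG1 libraries 5 to 8, and 88.1, 81.0, 84.6 and 78.0 CPM in vehicle libraries 1 to 4. In CPM the 3 groups did not overlap here, with NRG1 lowest, EF-1 in the middle and vehicle highest. In edgeR, EF-1 minus NRG1 was 2.69 on the log2 scale (SE 0.12) with an adjusted p of 2.57e-06. NRG1 minus vehicle was -2.89 (SE 0.10) with an adjusted p of 3.37e-09, and EF-1 minus vehicle was -0.21 (SE 0.09) with an adjusted p of 0.239, which did not pass the threshold. For each of these 4 genes the difference between agonists was made mostly by the NRG1 libraries.

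**Figure D1:**
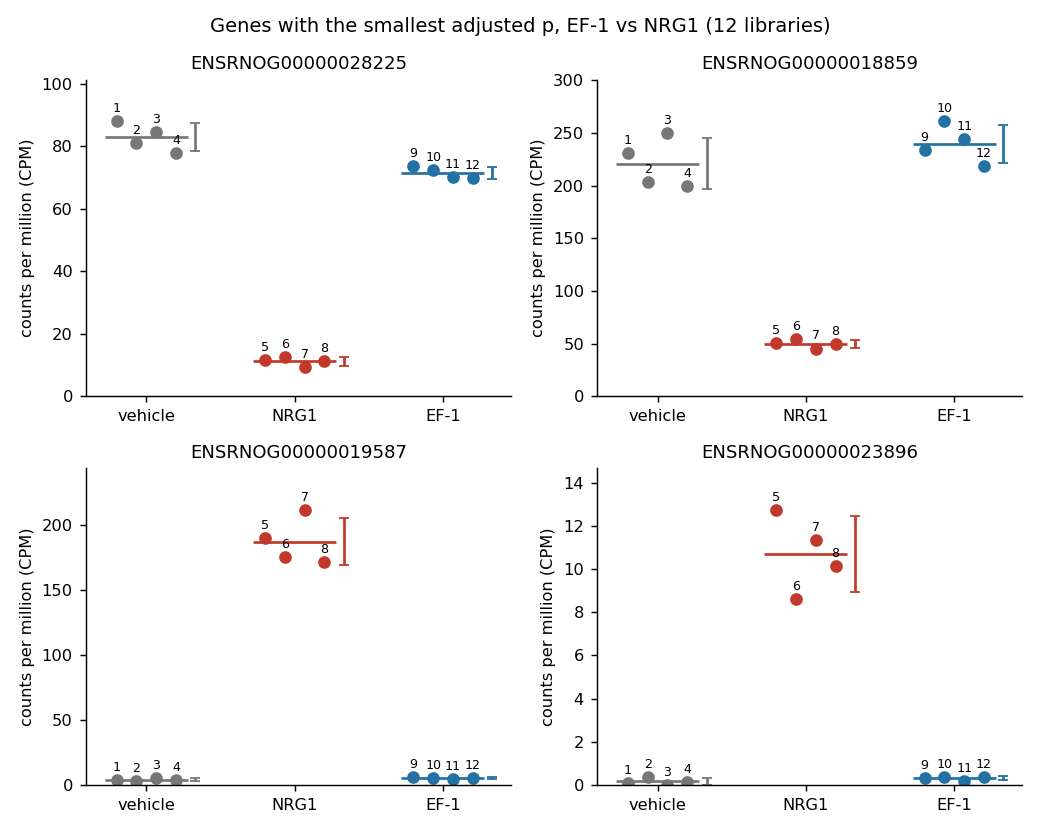
CPM (vertical axes, linear from 0) of the 4 genes in each of the 12 libraries, numbered, by group, with the mean as a line and the SD (n = 4) as a bar beside it. In all 4 panels the NRG1 libraries stand apart, and the EF-1 libraries lie near the vehicle libraries.

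For 3 of the 4 genes the counts matched those expected from 1 deposited transcript in all 12 libraries, which gives a level per transcript length as TPM, the library's transcripts scaled to a fixed sum after division by length. On that scale ENSRNOG00000018859 was the most abundant of the 3 with EF-1, at 108 ± 10.97 TPM (SD, n = 4), and was at 25.1 ± 2.08 TPM (SD, n = 4) with NRG1. ENSRNOG00000019587 was the most abundant with NRG1, at 63.0 ± 7.08 TPM (SD, n = 4), and was at 1.63 ± 0.394 TPM (SD, n = 4) with EF-1. ENSRNOG00000028225 was at 30.1 ± 4.56 TPM (SD, n = 4) with EF-1 and 5.18 ± 0.601 TPM (SD, n = 4) with NRG1. The order of the groups EF-1 and NRG1 was the same in TPM as in CPM for these genes. For ENSRNOG00000028225 the EF-1 and vehicle libraries overlapped in TPM, since EF-1 library 9 (35.5) lay above vehicle libraries 2 (35.4) and 4 (34.9).

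Each called gene was then placed against vehicle by ranges, on log2 CPM. A gene was placed as NRG1 away when all 4 NRG1 libraries lay on one side of the range of the vehicle libraries and the EF-1 libraries did not do so on either side, as EF-1 away in the reverse case, and as opposite when both agonists lay outside on different sides. When both lay outside on one side it was placed as same side, and otherwise as neither. Of the 2840 called genes, 1861 (65.5%) were NRG1 away, 63 (2.22%) EF-1 away, 71 (2.50%) opposite, 59 (2.08%) same side and 786 (27.7%) neither. Over all 10878 tested genes the same ranges placed 34.3% as NRG1 away, 2.16% as EF-1 away, 0.8% as opposite and 2.22% as same side. The called genes thus held more NRG1 away and opposite genes than the tested genes as a whole, and a share of EF-1 away and same side genes near the background. Choosing genes by the difference between the agonists favours genes in which both lie apart, and its part in these shares was not tested. The rule also asks that all 4 libraries of a group clear the range, which is harder for a group with more spread. Over the called genes the median SD was 0.19 in NRG1 libraries and 0.32 in EF-1 libraries. The part of this spread in the imbalance between NRG1 away and EF-1 away was not tested.

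The NRG1 away group held 1012 lower genes, in which NRG1 lay above vehicle, and 849 higher genes, in which NRG1 lay below it. In the lower genes of this group the median log2 CPM relative to the vehicle mean was 0.92, 0.97, 0.98 and 0.95 in NRG1 libraries 5 to 8 and -0.05, -0.22, -0.30 and 0.10 in EF-1 libraries 9 to 12. In the higher genes it was -0.79, -0.82, -0.84 and -0.84 in NRG1 libraries 5 to 8 and 0.09, 0.22, 0.17 and -0.07 in EF-1 libraries 9 to 12. The NRG1 libraries were close to each other in both directions. The EF-1 libraries scattered around vehicle, 3 of them slightly on the side away from NRG1 and library 12 slightly on the side of NRG1. Tested against vehicle in a fit of all 12 libraries, 829 of the 1012 were higher with NRG1 and 647 of the 849 lower with NRG1 past both thresholds (edgeR), where 10.1% and 9.17% of all tested genes were called in these directions. The placement already set these NRG1 libraries against these vehicle libraries, so the calls largely follow from it and add no separate support.

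**Figure D2:**
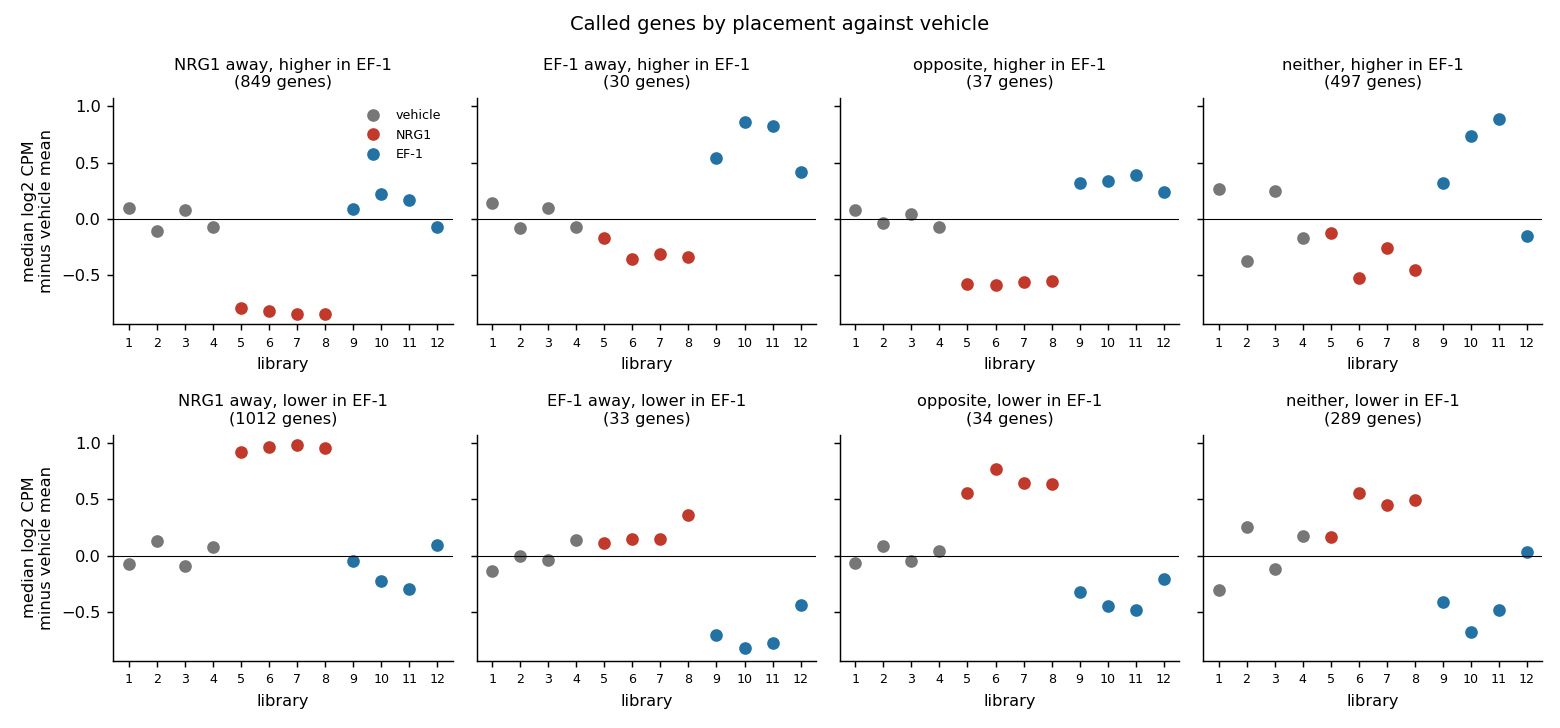
Median over genes of log2 CPM minus the vehicle mean (vertical axes) in libraries 1 to 12 (horizontal axes), for called genes placed as NRG1 away, EF-1 away, opposite or neither; top row genes higher in EF-1, bottom row genes lower in EF-1. Points are libraries. NRG1 libraries form a tight cluster in the NRG1 away panels, and EF-1 library 12 lies nearer to NRG1 than the other EF-1 libraries do in all 8 panels, unlike in the same side genes, which are not drawn.

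The share of called genes that the ranges placed at all rose with the size of the difference between the agonists. Of the 1657 called genes with an absolute log2 fold change between 0.58 and 1, 57.6% were NRG1 away and 36.5% neither. Of the 938 between 1 and 2, 73.7% were NRG1 away and 18.8% neither. Of the 245 genes at 2 or more, 87.8% were NRG1 away and 2.04% neither. Among the genes with a placement other than neither, the NRG1 away share did not rise: it was 955 of 1052 (90.8%), 691 of 762 (90.7%) and 215 of 240 (89.6%) in these bands. This flat share rests on EF-1 library 12. Without it, NRG1 away made up 1559 of 2883 placed genes (54.1%), against 1861 of 2054 (90.6%) with it, and the share was 727 of 1552 (46.8%), 611 of 1043 (58.6%) and 221 of 288 (76.7%) in the same bands. Over all tested genes, NRG1 away, EF-1 away, opposite and same side numbered 3728, 235, 87 and 242 with library 12. Over the 11038 genes tested without it they numbered 2945, 2097, 473 and 683. A high NRG1 away share among placed genes with library 12 was thus not particular to the called genes. A larger difference clears a range more easily. Among the 55 lower genes of at least 3, the median of the mean levels was 7.58 CPM with NRG1, 0.356 CPM with EF-1 and 0.497 CPM with vehicle. Among the 21 higher genes of at least 3 it was 0.398 CPM with NRG1, 6.04 CPM with EF-1 and 3.31 CPM with vehicle. The differences of at least 3 were therefore mostly in weakly expressed genes. On the linear CPM scale, the vehicle median lay near that of EF-1 in the lower genes and about midway between the agonists in the higher genes. A value midway in CPM lies nearer to the higher group on the log2 scale. By ranges with all libraries, 67 of the 76 called genes at 3 or more were NRG1 away. Fold changes of genes this weak depend on the prior count.

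**Figure D3:**
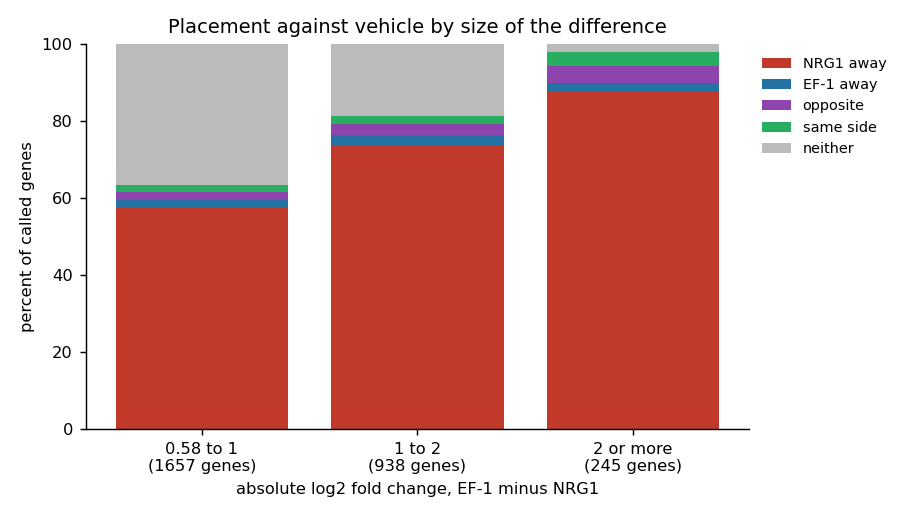
Percent of called genes (vertical axis) in each placement against vehicle, for 3 bands of the absolute log2 fold change between EF-1 and NRG1 (horizontal axis). From the smallest to the largest band the NRG1 away share is 57.6%, 73.7% and 87.8%, while the neither share is 36.5%, 18.8% and 2.04%.

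Group means gave a view that does not depend on the width of the vehicle range. In the order of the 3 means, an alternative added after seeing the data, vehicle lay between the agonists for 2159 called genes (76.0%), EF-1 lay between vehicle and NRG1 for 662 (23.3%) and NRG1 lay between vehicle and EF-1 for 19 (0.669%). Over all tested genes these shares were 48.4%, 29.7% and 21.8%. Choosing genes by a large difference between the agonists favours a vehicle mean between them, with or without library 12. The part of this choice in these shares was not tested. The difference between NRG1 and vehicle made up a median share of 0.771 of the difference between the agonists (interquartile range 0.563 to 0.984), 0.822 in lower genes and 0.725 in higher genes. Over all tested genes the median share was 0.646. Where the agonists hardly differ, the share divides by a value near 0, so the median over all tested genes is a weak background. The median shares depended on EF-1 library 12. With it left out of the EF-1 mean, an alternative added after seeing the data, the median share was 0.707 in the same called genes (0.761 in lower and 0.645 in higher genes) and 0.485 over all tested genes. In the 3874 genes called without library 12 it was 0.570, with 0.664 in lower and 0.478 in higher genes. Only in the lower genes did the larger part of the distance lie between NRG1 and vehicle in each of these sets. Vehicle lay between the agonists for 77.4% of the same called genes and 77.5% of those called without library 12, against 49.6% and 49.7% of the genes tested. By the share with library 12 in the mean, with over 0.75 as NRG1 away, under 0.25 as EF-1 away and values between as opposite, 1503 genes were NRG1 away, 117 EF-1 away and 1220 opposite, and without library 12 in the mean these numbers were 1286, 182 and 1372. The opposite group was 1220 genes by this share and 71 by ranges. These rules differ both in the use of means and in the cut, and the part of each was not tested.

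The 71 genes that met the stricter rule were placed by ranges and not by a test. Against vehicle, 37 of them were called for NRG1 and 0 for EF-1 past both thresholds in the fit of all 12 libraries (edgeR, the tool run for this), where 19.2% and 0.0273% of all tested genes were called. At an unadjusted p under 0.05 there were 70 for NRG1 and 64 for EF-1, where 41.3% and 20.5% of all tested genes passed. In the fit without library 12, 9 of the 37 higher and 7 of the 34 lower genes were called for EF-1 vs vehicle (edgeR). In that fit 9.07% of all tested genes were called higher with EF-1 and 4.93% lower. The placement asks that these libraries clear the vehicle range, so nothing is read from these counts. For the 37 of them higher in EF-1, the median log2 CPM relative to vehicle was 0.31, 0.33, 0.39 and 0.24 in EF-1 libraries 9 to 12 and -0.58, -0.58, -0.56 and -0.55 in NRG1 libraries 5 to 8. For the 34 lower in EF-1 it was -0.33, -0.45, -0.48 and -0.21 in EF-1 libraries 9 to 12 and 0.56, 0.77, 0.65 and 0.63 in NRG1 libraries 5 to 8. The NRG1 side was the larger in both directions. These genes varied little within groups, with a median SD of 0.12 in vehicle, 0.12 in NRG1 and 0.13 in EF-1, and a median vehicle range of 0.27 against 0.43 over all tested genes. The rule favours genes with narrow ranges, so the low spread follows in part from it. All 71 were called in that same direction when EF-1 library 12 was left out, but so were 95.7% of all higher and 97.5% of all lower genes, so this does not set the group apart. That every library clears the vehicle range is fixed by the rule, and is not a separate result. The group held 416 genes without EF-1 library 12, 141 without vehicle library 1 and 120 without vehicle library 3.

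In the 63 EF-1 away genes the EF-1 libraries lay further from vehicle than the NRG1 libraries in the medians, which largely follows from the placement rule. For the 30 higher genes the median log2 CPM relative to vehicle was 0.54, 0.86, 0.82 and 0.42 in EF-1 libraries 9 to 12 and -0.17, -0.36, -0.31 and -0.34 in NRG1 libraries 5 to 8. For the 33 lower genes it was -0.70, -0.82, -0.77 and -0.44 in EF-1 libraries 9 to 12 and 0.11, 0.14, 0.14 and 0.36 in NRG1 libraries 5 to 8. Library 12 was the EF-1 library nearest to vehicle in both. In the fit of all 12 libraries, 1 of the 63 genes was called for EF-1 vs vehicle past both thresholds (edgeR), where 0.0273% of all tested genes were called, and 62 had an unadjusted p under 0.05, where 20.5% of all tested genes did. In the fit without library 12, 21 of the 30 were called higher with EF-1 and 26 of the 33 lower (edgeR), where 9.07% and 4.93% of all tested genes were called in these directions. The placement already asks that every EF-1 library clear the vehicle range, so these counts restate the rule in part and add no separate support. The size of the EF-1 away group depended on single libraries. It was 797 genes without EF-1 library 12 and 131 without vehicle library 1.

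In 59 genes both agonists lay on the same side of vehicle and NRG1 lay further out. The 29 lower genes of this group were above vehicle by a median of 1.77 with NRG1 and 0.53 with EF-1 on the log2 scale. The 30 higher genes were below it by medians of -1.39 with NRG1 and -0.52 with EF-1. The distance from vehicle was the smaller with EF-1 in both directions. EF-1 library 12 was here the EF-1 library farthest from NRG1, at 0.34 in lower genes and -0.33 in higher genes, against 0.49 to 0.56 and -0.60 to -0.37 in libraries 9, 10 and 11. Their number was 90 without EF-1 library 11, 111 without EF-1 library 12 and 108 without vehicle library 1.

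The 786 called genes placed as neither had the widest spread of vehicle libraries, with a median vehicle range of 0.72 on the log2 scale. A wide vehicle range is harder to clear, so this follows in part from the placement rule. In the 497 higher genes of this group the median relative to the vehicle mean was 0.27, -0.37, 0.25 and -0.17 in vehicle libraries 1 to 4, -0.12, -0.53, -0.26 and -0.45 in NRG1 libraries 5 to 8, and 0.32, 0.73, 0.89 and -0.15 in EF-1 libraries 9 to 12. In the 289 lower genes it was -0.31, 0.26, -0.12 and 0.17 in vehicle libraries 1 to 4, 0.17, 0.55, 0.45 and 0.49 in NRG1 libraries 5 to 8, and -0.41, -0.68, -0.48 and 0.03 in EF-1 libraries 9 to 12. Vehicle libraries 1 and 3 lay towards EF-1 and vehicle libraries 2 and 4 towards NRG1 in both directions, and NRG1 library 5 lay nearest to vehicle. The order followed the transcript length slope in vehicle, which was -0.0939 and -0.0166 in libraries 1 and 3 and 0.191 and 0.135 in libraries 2 and 4. The part of transcript length in these genes was not tested. The neither group shrank to 377, 455 and 379 genes without NRG1 libraries 6, 7 and 8, and to 359 and 425 without EF-1 libraries 10 and 11.

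Summed over genes, the called sets took a sizeable part of each library. The 1443 higher genes together held 211329, 236041, 237163 and 179006 CPM in EF-1 libraries 9 to 12, 122789, 111123, 108796 and 107543 CPM in NRG1 libraries 5 to 8, and 214329, 179351, 199999 and 183252 CPM in vehicle libraries 1 to 4. The 1397 lower genes held 89395, 84815, 83828 and 98585 CPM in EF-1 libraries 9 to 12, 173154, 178719, 176608 and 175136 CPM in NRG1 libraries 5 to 8, and 89359, 103717, 89468 and 95390 CPM in vehicle libraries 1 to 4. That EF-1 and NRG1 differ is fixed by the choice of genes. Vehicle entered no choice, and its libraries overlapped with EF-1 and not with NRG1 in both sets. The overlap with EF-1 rested largely on library 12. Without library 12, only EF-1 library 9 still overlapped with vehicle, and it passed vehicle library 1 alone. It lay below that library in the higher genes (211329 against 214329 CPM) and just above it in the lower genes (89395 against 89359 CPM). The remaining EF-1 libraries lay beyond all vehicle libraries, on the side away from NRG1, in both sets. The means were 194233 ± 16116 CPM (SD, n = 4) with vehicle, 215885 ± 27324 CPM (SD, n = 4) with EF-1 and 112563 ± 6977 CPM (SD, n = 4) with NRG1 for the higher genes.

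Called genes were found at all expression levels. The tested genes were divided by mean CPM over the 8 libraries into 4 bins of equal size. In the lowest bin, 15.8% were higher and 15.7% lower with EF-1. In the second bin the shares were 12.8% and 11.8%, in the third 11.3% and 11.2%, and in the highest, from 77.6 CPM upwards, 13.2% and 12.6%. Neither direction was confined to weakly expressed genes.

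EF-1 library 12 was the EF-1 library nearest to NRG1 in most called genes. It held that position in 964 of the 1443 higher genes (66.8%) and 876 of the 1397 lower genes (62.7%), while each other EF-1 library did so in at most 16.3%. In 337 higher genes (23.4%) and 119 lower genes (8.52%) its value lay within the range of the NRG1 libraries or beyond it. Among the NRG1 libraries, library 5 was nearest to EF-1 in 699 higher genes (48.4%) and 598 lower genes (42.8%), and lay within the EF-1 range or beyond it in 311 higher genes (21.6%) and 96 lower genes (6.87%). NRG1 library 7 did the latter in 192 higher genes (13.3%) and 20 lower genes (1.43%). The median difference of EF-1 library 12 from the NRG1 mean was 0.56 in higher genes, against 0.80, 1.05 and 1.12 in libraries 9, 10 and 11, and -0.76 in lower genes, against -0.92, -1.11 and -1.09. Library 12 thus lay on the EF-1 side of NRG1 in the typical called gene, at a shorter distance. The test that called these genes included library 12, so its side follows in part from their choice.

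With library 12 left out, 2054 of 11038 genes were higher and 1820 lower with EF-1, 18.6% and 16.5% of those tested (edgeR). Of the genes called with all 8 libraries, 1381 of 1443 higher genes (95.7%) and 1362 of 1397 lower genes (97.5%) were called in the same direction without it, 97 genes were no longer called, and 1131 genes were called only without it. Among the 651 higher genes added that had also been tested with all 8 libraries, library 12 had a median difference from the NRG1 mean of -0.12, against 0.39, 0.79 and 1.02 in libraries 9, 10 and 11. Among the 425 added lower genes it was -0.10, against -0.56, -0.79 and -0.69. The position of library 12 in the added genes follows from how they were chosen, since they are the genes called once it was removed.

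The placement against vehicle moved more than the counts did. Without library 12, 1559 of 3874 called genes (40.2%) were NRG1 away, 797 (20.6%) EF-1 away, 416 (10.7%) opposite, 111 (2.87%) same side and 991 (25.6%) neither. Over the 10878 tested genes the shares without library 12 were 26.7% NRG1 away, 19.2% EF-1 away, 4.33% opposite and 6.28% same side, a background over a set of genes that differs from the one tested in this fit. Over the 11038 genes tested in this fit the EF-1 away share was 19.0%. With 3 libraries a range is cleared more easily than with 4, and the number of called genes differs between these fits. Leaving out EF-1 library 9, 10 or 11 gave 72, 59 and 66 EF-1 away genes and 100, 83 and 88 opposite genes. For the genes called with all 8 libraries, leaving library 12 out of the ranges alone, an alternative added after seeing the data, gave 1478 NRG1 away (52.0%), 386 EF-1 away (13.6%), 377 opposite (13.3%), 136 same side (4.79%) and 463 neither (16.3%). On that matched set the EF-1 away share was thus below the 19.2% over all tested genes, while among the genes called without library 12 it was slightly above the background. By ranges, NRG1 away was the most frequent placement with and without library 12. By the share of the difference this held with library 12 in the EF-1 mean (1503 against 1220 opposite). It did not hold with library 12 left out of that mean (1286 against 1372 opposite). The EF-1 away and opposite groups changed most without that library, and also changed without vehicle library 1 (131 and 141 genes), and the opposite group without vehicle library 3 (120 genes).

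**Figure D4:**
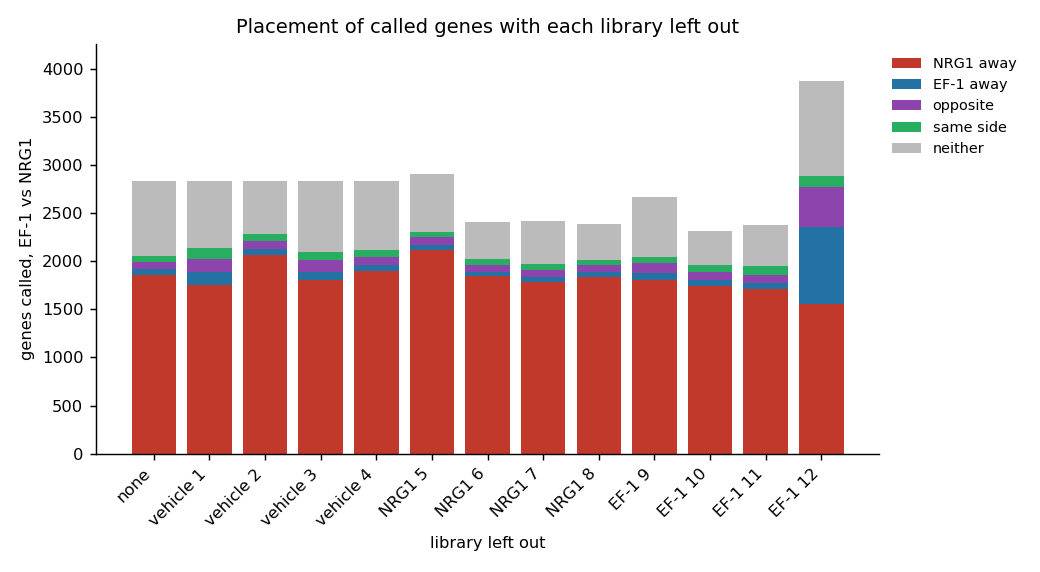
Number of genes called in EF-1 vs NRG1 (vertical axis, stacked by placement against vehicle) with no library left out and with each of the 12 libraries left out in turn (horizontal axis). Without EF-1 library 12 the EF-1 away group holds 797 genes and the opposite group 416.

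In the 445 higher genes placed as EF-1 away without library 12, the median relative to vehicle was 0.45, 0.82 and 0.96 in EF-1 libraries 9, 10 and 11, -0.13 in library 12, and 0.06, -0.33, -0.05 and -0.26 in NRG1 libraries 5 to 8. In the 352 lower genes it was -0.48, -0.72 and -0.62 in libraries 9, 10 and 11, 0.04 in library 12, and 0.01, 0.29, 0.16 and 0.27 in NRG1 libraries 5 to 8. Most of these genes have this placement only because library 12 was left out, so its position near vehicle follows from the choice. Library 12 also differed from the other EF-1 libraries in its transcript length slope, and with the ratio of effective to annotated transcript length as a covariate and library 12 left out, both together an alternative added after seeing the data, 844 genes were higher, 979 lower and 1896 passed at any fold change. With that covariate and all 8 libraries the numbers were 1260, 1302 and 4609. Without library 12 every EF-1 library had a lower log2 ratio (-0.223 to -0.163) than every NRG1 library (-0.155 to -0.121). The ratio thus went with the treatment in those 7 libraries, though not exactly, and its part in the lower counts was not tested. A check of called genes by transcript length was void, since 72.1% of the tested genes had a length.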

How the data were processed

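RNA-seq of 12 iAM libraries was used, 4 per group by treatment label. Per the submitters' processing notes the authors used Salmon, DESeq2 and the Rnor_6.0 build. By the study's methods they corrected for GC content, obtained gene values through length-scaled tximport, and added a covariate for the sequencing run. No label gives the run, and it was not used here. The authors deposited estimated counts per gene for 19775 Ensembl identifiers, and per transcript estimated counts, TPM, and annotated and effective lengths for each library. Effective length is the number of positions at which, by Salmon's bias models, a fragment could begin.

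Estimated counts were rounded. The test was edgeR 4.0.16 in R 4.3.3 on the 8 EF-1 and NRG1 libraries (TMM normalization, minimum count 10 in filterByExpr, quasi-likelihood fit with its robust option). Values against vehicle came from a fit of all 12 libraries. DESeq2 1.42.0 and limma 3.58.1 served as alternatives, with other normalizations, filters, covariates, equal depth and each library left out. The scripts were tested on simulated data. CPM used TMM factors over 12 libraries, and log2 CPM a prior count of 2. Library totals ran from 12216228 to 27467198. Between libraries of a group, chi-square divided by its degrees of freedom ran from 16.4 to 198, far above sampling noise, so no library was treated as a copy. Length measures used 12239 transcripts of at least 500 bases and a mean of at least 50 reads. A gene was matched to 1 transcript when TPM, mean effective length and a library factor gave its counts within 0.6 plus a share of 1e-05 of the count in all 12 libraries.

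The reference table of gene names (GRCr8) has 0 Ensembl entries, so 0 of 19775 identifiers were matched, and gene lists, cell type markers and promoter motifs were not run. By rule, the identifiers with the smallest adjusted p were named, 2 in each direction, ties ordered by p. The members and lists were chosen with earlier results of these data known.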

Additional observations from a re-analysis of the deposited data

Results flagged for a closer look

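Genes detected, with a minimum of 1 count, numbered 13058 in library 7 of the NRG1 group, against 12873, 12879 and 12848 in NRG1 libraries 5, 6 and 8. It was picked out because its gap to the nearest library was large for the range of its group. In all, 33 groups of 4 values were examined, and chance picks out about 1 in 20 such groups. The cause was not tested.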

How the results depend on the processing

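The counts of higher, lower and any-fold genes stayed within 1.5 times under all planned and added alternatives but glmTreat (434 higher, 577 lower) and the effective-length covariate without library 12 (844 higher, 1896 at any fold change). The first tests against the fold threshold, and the cause of the second was not tested. With 1 library left out, higher genes ranged from 1097 to 2054, lower genes from 1182 to 1820 and genes at any fold change from 2928 to 6015, each highest without EF-1 library 12. Over the 12 placements with 1 library left out, NRG1 away ranged from 1559 to 2118, EF-1 away from 44 to 797, opposite from 74 to 416, same side from 51 to 111 and neither from 359 to 991. By calls against vehicle in edgeR, 1626 genes were NRG1 away, 1 EF-1 away, 0 opposite, 1 same side and 1211 neither. At an unadjusted p under 0.05 for both agonists, 309 genes lay on opposite sides. No other tool was run for this. The EF-1 calls behind these counts depended on library 12. With it, 3 tested genes (0.0273%) were called for EF-1 vs vehicle. Without it, 1007 were called higher and 547 lower with EF-1 (9.07% and 4.93%). The study, using DESeq2 with a covariate for the sequencing run, reports many more genes at these thresholds than were called here with library 12. Most of the genes it reports were lower with EF-1. No label gives the run, so that fit was not repeated. The placement by calls is given with library 12 only. By the share of the difference 117 were EF-1 away and 1220 opposite. With library 12 left out of the EF-1 mean these numbers were 182 and 1372, and 1286 were NRG1 away. With library 12 left out of the ranges alone, 386 were EF-1 away, 377 opposite, 136 same side and 463 neither. DESeq2 kept each placement within 1.5 times. The 4 named genes passed both thresholds under all 20 alternatives, with log2 fold changes from 2.63 to 2.82 (ENSRNOG00000028225), 2.21 to 2.31 (ENSRNOG00000018859), -5.26 to -5.05 (ENSRNOG00000019587) and -5.63 to -4.87 (ENSRNOG00000023896). No library measure passed an adjusted p of 0.05 with or without library 12, where the smallest exact p is 0.0571. Depth limits genes near 0 counts. No paired analysis was possible because no label pairs a library of a group with a library of another group. Without gene names, the lists, markers and motifs were not run.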
